A study of Mus musculus with 6 samples.

Results

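The genes described here are homeobox and PAX transcription factors that mark regional identity in the nervous system. They were chosen by symbol (Hox, Pax, Lhx, Lmx1a, Isl, POU, sine oculis (Six2 to Six6), Dlx, Irx, Nkx, Otx, Gbx, Otp, Pitx, Pbx, Meis, Barhl, Zfhx, Cux, Onecut, Satb and Msx genes, leaving out Nkx2-2, Nkx6-1 and Nkx6-2), and 114 of the 18193 genes with a probe set of their own matched. The assay was TRAP (translating ribosome affinity purification), which pulls tagged ribosomes and the mRNA on them out of a lysate, read out on Affymetrix mouse arrays. All samples came from BAC transgenic mice of the line slc6a4 JD60 (genotype Slc6a4 JD60) on a mixed FVB and c57/bl6j background, adults of both sexes, 6 to 12 weeks old, with no treatment named. The tissue was midbrain and brainstem with the cerebellum removed, and each sample pooled 5 mice. The IP group held 3 samples of ribosome-bound RNA labelled as serotonin neurons. Its counterpart, unbound, held 3 samples of the RNA that stayed in the same replicates' lysates, labelled as total tissue. Which cells carry the tag depends on where the Slc6a4 transgene is active in this line, and no pull-down from mice without the transgene was analysed here.

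Homeobox genes encode DNA-binding proteins that fix the position and type of neurons along the axes of the neural tube, and many stay on in the adult neurons they specified. Hox genes mark levels of the hindbrain and spinal cord, where Pbx and Meis proteins act as their DNA-binding partners, while Otx2 marks forebrain and midbrain and meets Gbx2 at the boundary with the hindbrain. Pax, LIM, POU, Irx and other homeobox families divide these levels further into domains and neuron types. Serotonin neurons arise in the ventral hindbrain, in a rostral group under the midbrain and pons and a caudal group in the medulla.

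Serotonin neuron markers were high in IP: 6 of 6 rose, with Tph2, the serotonin synthesis enzyme, at 15.16 against 9.35 in unbound RNA on the log2 scale. Of 26 tested genes of glia, vessels and ependyma 24 fell and 2 rose (Aif1 of microglia by 1.02 and Dynlrb2 of ependyma by 1.06 on the log2 scale), and of 12 tested genes of other transmitter types 11 fell. Of these, 14 of the 24 and 3 of the 11 lay below a log2 value of 5 on every IP array, and Aif1 on every unbound array, so that the filter on low values given below fixed their direction. Over all genes tested, 10.4% rose and 41.1% fell by the call defined below. Among the genes of other transmitter types, Prph of the cholinergic list (7.28 in IP and 7.37 unbound) was not called. The summed signal of the 5 GABAergic and glycinergic markers, on a log2 scale, was 11.05 to 11.66 in IP and 13.33 to 13.78 in unbound arrays, and that of the 6 astrocyte markers was 11.14 to 11.28 and 13.93 to 14.52. Sox9, Vcan and Cx3cr1 stayed below a log2 value of 5 on every IP array. The part of these other cells in the results below was not tested. Among cholinergic markers Chat, Slc5a7 and Slc18a3 stayed below 5 on all arrays, and the cerebellar granule cell markers Gabra6, Cbln3 and Neurod1 were above 5 on all unbound arrays although the label says that the cerebellum was removed. In such bulk RNA, fewer cells of a type and less RNA per cell cannot be told apart.

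Most of these regional genes that could be measured were lower on the ribosomes of the tagged cells than in the tissue, and 1 was higher. A log2 value of 5 served as the detection limit, which a gene had to reach on 3 or more of the 6 arrays to be tested. Of the 114 members 37 were tested, of which 32 fell, 1 (Meis3) rose and 4 (Pbx2, Pbx3, Cux1 and Pou6f1) were not called, where a call took an adjusted p under 0.05 in limma and a change of at least 2-fold. Over all 10581 genes tested, 41.1% were lower, 10.4% higher and 48.4% not called. The median log2 change, IP minus unbound, was -2.94 for the tested members and -0.65 for all tested genes. These figures hold a selection: 18 of the 37 lay below the limit on every IP array, so they could pass only through the unbound arrays and had to be lower. For these 18, folds given as at least a value are bounds against the limit. The adjusted p beside such a bound is of the limma fit to the values below the limit, and it gives no support for the direction. Among the other 19, with both group means at or above the limit, 14 fell and 1 rose, with a median of -1.83, while 33.2% of all 8856 such genes were lower, 10.4% higher and 56.4% not called, with a median of -0.43. In each of the 32 genes that fell, and in Cux1 and Pou6f1, all IP arrays lay below all unbound arrays. The filter fixed this order for the 18 below the limit on every IP array. The same order held for 59.1% of all tested genes and for 54.0% of those with both means at the limit. The reverse order, seen for Meis3, held for 23.9% and 26.1%, and overlap, seen for Pbx2 and Pbx3, for 17.0% and 20.0%. The 2 groups were normalised separately by the authors, and on 12 of the 37 genes the IP arrays held 3 identical values, as did 20.1% of all tested genes, so the spread within IP is understated there. In further genes, among them Meis3 and Hoxb5, IP replicates 2 and 3 held the same value, and their spread may be understated too.

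**Figure D1:**
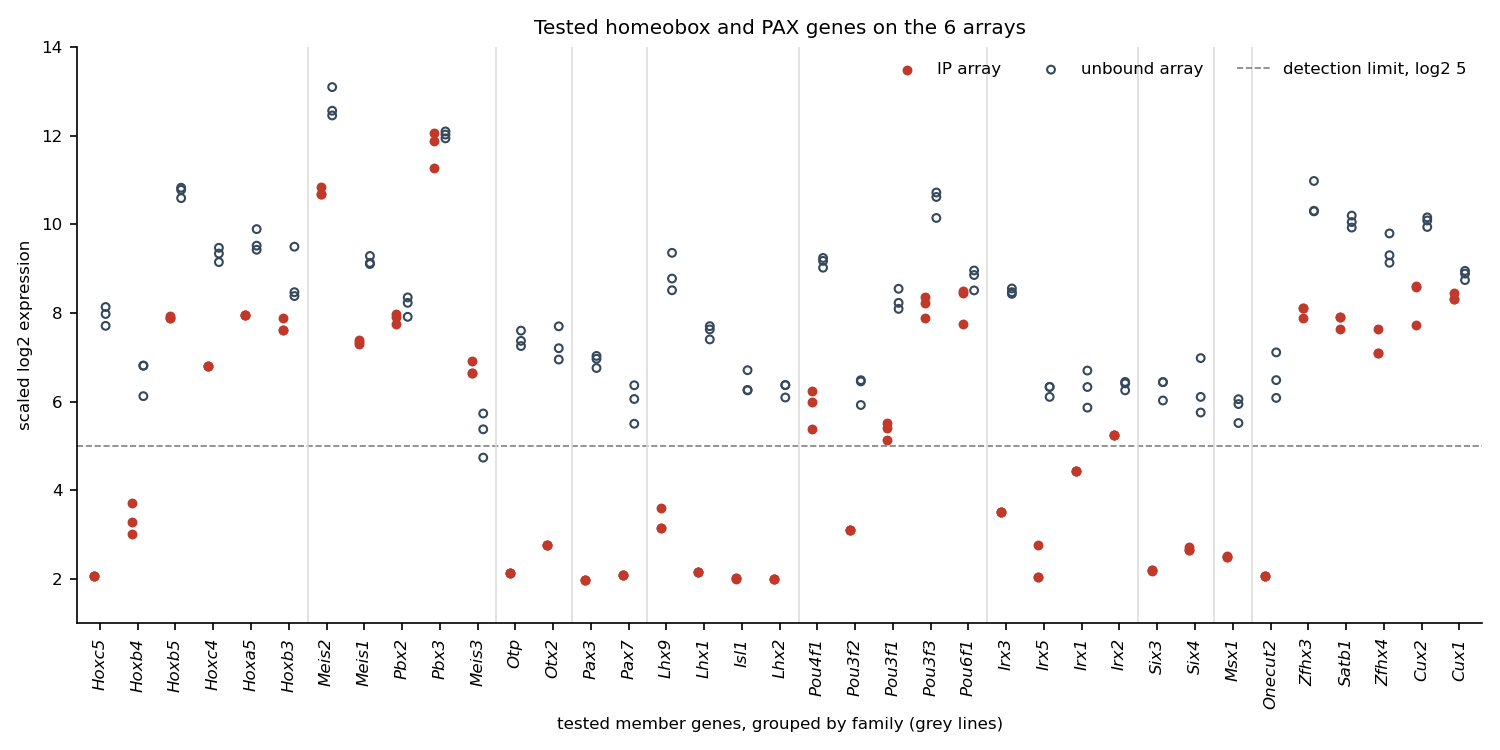
Scaled log2 expression (y axis) of the 37 tested members on the 3 IP arrays (filled) and the 3 unbound arrays (open), grouped by family, with the detection limit of 5 dashed. Meis3 is the gene whose IP points all lie above its unbound points, Pbx2 and Pbx3 overlap, and 18 genes have all IP points below the limit.

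By probe sets of a single gene, the Hox genes that reached the limit in the tissue came from paralogue groups 3 to 6. Every tested one fell in IP, a direction that the filter fixed for Hoxb4 and Hoxc5. Of 33 Hox genes on the array 6 were tested, all from paralogue groups 3 to 5: Hoxb3, Hoxb4 and Hoxb5, which are neighbours on their chromosome, the neighbours Hoxc4 and Hoxc5, and Hoxa5. Hoxb5, a marker of the caudal hindbrain and spinal cord, was 7.94, 7.88 and 7.88 on the IP arrays and 10.82, 10.59 and 10.78 on the unbound arrays. The IP values of Hoxb5 were far below the lowest unbound value, a 7.13-fold difference (log2 change -2.83 ± 0.09 SE, adjusted p = 1.44e-06). IP replicates 2 and 3 held the same value. Hoxc4 was 6.80 on each IP array and 9.34, 9.47 and 9.15 unbound, 5.73-fold lower in IP (log2 change -2.52 ± 0.10 SE, adjusted p = 3.42e-06). Its neighbour Hoxc5 was at 2.07, near the lowest value on the array, on all IP arrays and at 7.71, 7.98 and 8.13 unbound. Against the limit of 5 that is at least 7.67-fold lower (adjusted p = 4.54e-07). Hoxb4 was 3.00, 3.72 and 3.28 in IP and 6.12, 6.81 and 6.81 unbound, at least 2.99-fold lower (adjusted p = 6.26e-05).

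Hoxa5 and Hoxb3 were above the limit in IP by their brightest probe set and below it by their other tested one, and both probe sets of each gene were lower in IP. Hoxa5 read 7.95 on all IP arrays and 9.89, 9.52 and 9.43 unbound, 3.16-fold lower, by a probe set whose name ends in x_at, which marks probes that can also match other transcripts. Its other tested probe set was below the limit in IP (4.35, 4.64 and 4.47, against 8.70, 8.19 and 8.47 unbound) and gave a log2 change of -3.97. Hoxb3, active in the caudal hindbrain, was 7.88, 7.62 and 7.62 in IP and 9.49, 8.38 and 8.47 unbound, the unbound value of replicate 1 standing apart. Its log2 change was -1.08 ± 0.31 SE (2.11-fold, adjusted p = 0.0185), and without unbound replicate 1 it was -0.72, under the 2-fold limit. Without IP replicate 2 or 3 the change was -1.03 and the adjusted p 0.0516 and 0.0521, within a range of 1.95e-05 to 0.892 over all alternatives. The other tested probe set of Hoxb3 was 4.36 on all IP arrays and 6.29, 6.41 and 6.64 unbound, a log2 change of -2.09 ± 0.11 SE (adjusted p = 1.08e-05 with every probe set tested by itself). By brightest probe sets, Hoxb3 was the 1 tested Hox gene that lost its call when single arrays were left out.

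The 27 other Hox genes were not tested. None of the 4 from groups 1 and 2 reached the limit on any array, with unbound values of 2.17 to 4.32, nor did any of the 18 from groups 7 to 13, with unbound values of 2.17 to 3.93 and IP values of 1.98 to 2.04. A probe set annotated to a pair of neighbouring Hox genes of groups 7 and 8, and therefore not used, averaged 5.77 in unbound and 2.04 in IP RNA. Within groups 3 to 6, Hoxa3, Hoxa4 and Hoxc6 reached the limit on 1 or 2 unbound arrays: Hoxa4 read 5.12, 4.87 and 5.66 there and 1.98 on all IP arrays. Among probe sets of a single Hox gene used here, those at or above the limit thus came from groups 3 to 6 in unbound RNA, and from Hoxa5, Hoxb3, Hoxb5 and Hoxc4 in IP.

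**Figure D2:**
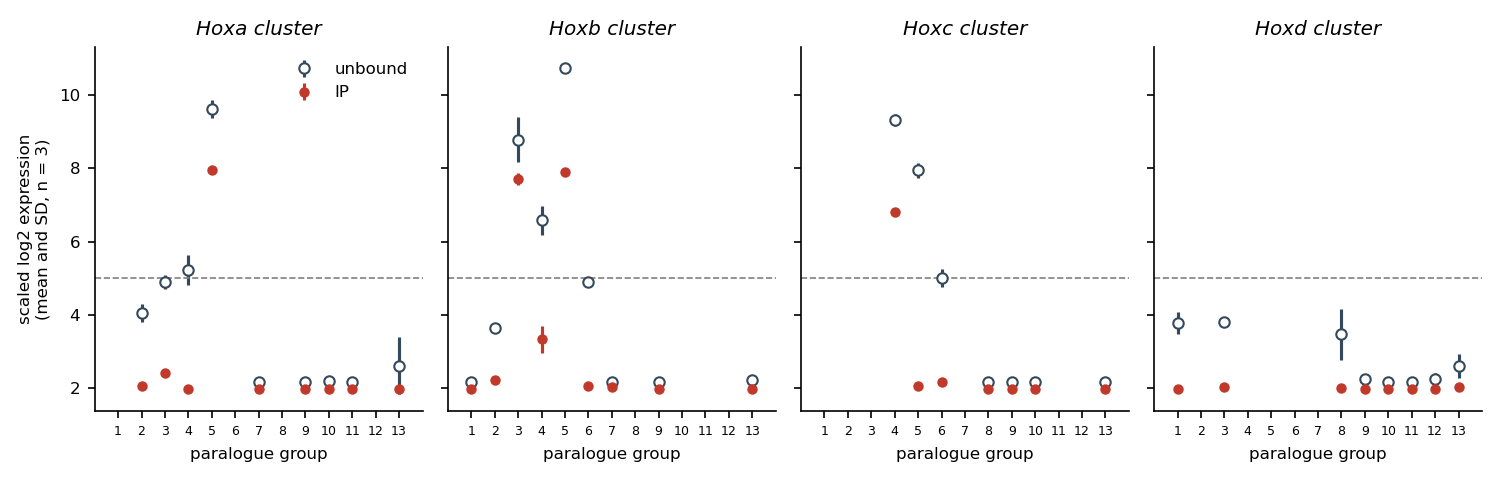
Mean scaled log2 expression (y axis, bars SD, n = 3) of the 33 Hox genes by paralogue group (x axis) in each cluster, with unbound RNA open, IP filled and the limit of 5 dashed. Unbound points above the limit all lie in groups 3 to 6, where Hoxa3, Hoxb6 and Hoxd3 stay below it. Those in groups 7 to 13 stay under 4. IP points exceed the limit for Hoxa5, Hoxb3, Hoxb5 and Hoxc4.

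The TALE homeobox genes, whose proteins pair with Hox proteins on DNA, went 3 ways. Meis3, a Hox partner known from hindbrain patterning, was 6.91, 6.66 and 6.66 on the IP arrays and 4.74, 5.73 and 5.38 on the unbound arrays. All IP values exceeded all unbound ones, although unbound replicate 1 lay under the limit, and Meis3 was 2.75-fold higher in IP (log2 change 1.46 ± 0.26 SE, adjusted p = 0.00231). Meis1 read 7.35, 7.39 and 7.29 in IP and 9.13, 9.10 and 9.29 unbound, 3.55-fold lower (log2 change -1.83 ± 0.08 SE, adjusted p = 5.56e-06). Meis2, also a marker of midbrain and forebrain neurons, read 10.67, 10.84 and 10.67 in IP and 13.10, 12.46 and 12.56 unbound, 3.94-fold lower (log2 change -1.98 ± 0.18 SE, adjusted p = 0.000111). Each of the 3 tested probe sets of Meis2 was lower, from -1.70 to -2.19. Of the 3 paralogues, then, 1 rose and 2 fell in the same samples, and these signs held under each scaling but for Meis3 on poly-A spikes (-1.22, where it was not tested).

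Pbx2 and Pbx3, which encode partners of both Hox and Meis proteins, were abundant in both fractions. Pbx3 was 11.28, 11.87 and 12.05 in IP and 11.94, 12.02 and 12.09 unbound. The groups overlapped, with IP replicate 1 below the rest, and the log2 change was -0.29 ± 0.21 SE (adjusted p = 0.241), or -0.06 without that array. Pbx2 was 7.74, 7.97 and 7.92 in IP and 8.23, 8.35 and 7.91 unbound (log2 change -0.29 ± 0.14 SE, adjusted p = 0.0986). Their signs turned positive under median scalings (0.51 and 0.74 for each) and that of Pbx2 also under quantile normalisation (0.48). The probe sets of each gene differed too, from -0.69 to 0.38 for Pbx2 and from -0.29 to 0.11 for Pbx3, and none of them passed the call. Pbx4 did not reach the limit on any array.

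The 250 bases before the RefSeq transcription start are shown for the 3 Meis genes, because these paralogues moved in opposite directions, and for Lhx9, Lhx1, Pou4f1 and Six3, genes that fell and carry the MEIS core TGACAG. Cux2, which fell by its brightest probe set, also carries this core and is not shown. Positions are in GRCm38.p6: Meis3 at chr7:16175145-16175394 (plus strand), Meis1 at chr11:19018970-19019219 (minus strand), Meis2 at chr2:116064620-116064869 (minus strand), Lhx9 at chr1:138842445-138842694 (minus strand), Lhx1 at chr11:84525535-84525784 (minus strand), Pou4f1 at chr14:104468000-104468249 (minus strand) and Six3 at chr17:85620584-85620833 (plus strand). Sequences run 5′ to 3′ on the gene's strand, and capitals mark TGACAG or its reverse complement CTGTCA.
Meis3: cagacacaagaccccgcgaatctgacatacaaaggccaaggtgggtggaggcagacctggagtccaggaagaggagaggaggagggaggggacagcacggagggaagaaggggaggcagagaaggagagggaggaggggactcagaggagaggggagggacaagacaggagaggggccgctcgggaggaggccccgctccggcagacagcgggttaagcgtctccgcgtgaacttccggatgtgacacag
Meis1: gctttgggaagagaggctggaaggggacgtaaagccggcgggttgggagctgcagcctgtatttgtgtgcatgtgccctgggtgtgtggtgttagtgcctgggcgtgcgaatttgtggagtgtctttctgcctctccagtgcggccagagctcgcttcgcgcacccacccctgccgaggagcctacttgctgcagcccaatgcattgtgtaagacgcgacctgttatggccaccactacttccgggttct
Meis2: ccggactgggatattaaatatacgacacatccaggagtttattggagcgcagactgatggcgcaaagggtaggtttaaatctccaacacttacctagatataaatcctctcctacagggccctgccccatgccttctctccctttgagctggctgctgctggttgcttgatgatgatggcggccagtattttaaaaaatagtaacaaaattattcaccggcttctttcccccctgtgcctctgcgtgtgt
Lhx9: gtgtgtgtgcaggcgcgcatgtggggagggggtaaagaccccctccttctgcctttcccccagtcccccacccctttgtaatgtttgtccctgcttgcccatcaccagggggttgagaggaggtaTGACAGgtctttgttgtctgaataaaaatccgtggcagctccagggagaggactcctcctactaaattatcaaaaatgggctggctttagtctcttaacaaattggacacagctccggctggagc
Lhx1: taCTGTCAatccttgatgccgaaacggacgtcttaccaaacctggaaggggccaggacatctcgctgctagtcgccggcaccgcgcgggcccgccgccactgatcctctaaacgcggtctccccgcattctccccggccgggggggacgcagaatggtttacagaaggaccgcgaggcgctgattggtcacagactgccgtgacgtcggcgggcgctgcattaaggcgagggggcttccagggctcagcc
Pou4f1: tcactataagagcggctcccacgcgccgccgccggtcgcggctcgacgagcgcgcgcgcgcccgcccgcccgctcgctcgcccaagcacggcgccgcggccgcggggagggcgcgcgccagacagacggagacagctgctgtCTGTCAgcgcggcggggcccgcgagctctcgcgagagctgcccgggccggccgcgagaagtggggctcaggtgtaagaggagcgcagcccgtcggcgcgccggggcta
Six3: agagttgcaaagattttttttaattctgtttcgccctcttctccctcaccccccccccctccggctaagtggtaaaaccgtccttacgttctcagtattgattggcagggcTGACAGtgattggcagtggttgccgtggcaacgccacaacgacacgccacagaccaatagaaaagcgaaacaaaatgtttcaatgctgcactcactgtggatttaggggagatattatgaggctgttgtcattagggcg
The MEIS letters lie 125 bases before the start in Lhx9, 248 in Lhx1, 108 in Pou4f1 and 139 in Six3, counted from the first base of the match. On both strands, TGACAG was found in 15.2% of the 33 windows of members that fell and in 15.9% of all 32851 windows of this length. The shares were 3.03% and 7.68% for TGATNNAT, the joint PBX-HOX site, and 6.06% and 4.84% for TAATTA, a core bound by many homeodomains. For AGATAA, a core bound by the factors of the Gata family, they were 6.06% and 9.99%. None of these 4 motifs occurs in the 3 Meis windows. The RefSeq table held windows for 78 of the 114 members.

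Of the 6 Otx, Gbx, Otp and Pitx genes measured, 2 were tested, and both fell, a direction that the filter fixed. Otx2, which specifies forebrain and midbrain, was 2.76 on all IP arrays and 6.95, 7.20 and 7.70 unbound, at least 4.87-fold lower in IP (adjusted p = 4.32e-06). Otp, a factor of hypothalamic neuroendocrine neurons, was 2.13 on all IP arrays and 7.60, 7.25 and 7.37 unbound, at least 5.31-fold lower (adjusted p = 4.30e-07). Neither gene had a measurable level in IP, so their larger fitted changes (-4.52 and -5.28) depend on values below the limit. Gbx1, Gbx2, Otx1 and Pitx1 did not reach the limit on any array, and Gbx1 came nearest, at 3.82 on 1 unbound array.

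Pax3 and Pax7, paired-box factors of the dorsal neural tube and dorsal midbrain, fell. Pax3 was 1.98 on all IP arrays and 6.76, 7.03 and 6.97 unbound, at least 3.78-fold lower (adjusted p = 4.00e-07). Pax7 was 2.08 on all IP arrays and 5.50, 6.37 and 6.06 unbound. That is at least 1.97-fold lower, a bound under 2-fold (adjusted p = 1.31e-05 in the limma fit to the values below the limit). Pax6, an eye and forebrain factor also used in hindbrain progenitors, was not tested, with 1.98 on all IP arrays and 5.58, 4.94 and 5.75 unbound. The other 5 Pax genes measured stayed below the limit on every array.

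All 4 tested LIM homeobox genes fell, and all lay below the limit on every IP array. Lhx9, known from dorsal interneurons and thalamus, was 3.60, 3.16 and 3.16 in IP and 9.36, 8.78 and 8.51 unbound, at least 14.7-fold lower (adjusted p = 4.96e-06). It had the largest bound of the members, and its 3 tested probe sets ranged from -5.58 to -4.07. Lhx1, a factor of inhibitory and reticular interneurons, was 2.15 on all IP arrays and 7.63, 7.70 and 7.40 unbound, at least 5.97-fold lower (adjusted p = 3.82e-07). Isl1, best known from motor and sensory neurons, was 2.01, 2.01 and 2.00 in IP and 6.71, 6.25 and 6.26 unbound, at least 2.65-fold lower (adjusted p = 1.46e-06). Lhx2 was 2.01 in IP and 6.37, 6.09 and 6.37 unbound, at least 2.43-fold lower (adjusted p = 5.71e-07). The other 7 members of the group, among them Lmx1a, Isl2 and Lhx5, did not reach the limit on any array, and the highest of their values was 4.87 for Lhx5 in unbound RNA.

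POU genes, many of them kept in adult neurons, fell in 4 of 5 tested cases but stayed measurable in IP in 3 of those. Pou4f1 (Brn3a), a factor of sensory relay neurons and habenula, was 5.38, 6.23 and 5.99 in IP and 9.24, 9.18 and 9.02 unbound, 9.70-fold lower (log2 change -3.28 ± 0.22 SE, adjusted p = 2.97e-05). Pou3f1 was 5.13, 5.40 and 5.51 in IP and 8.55, 8.09 and 8.23 unbound, 7.66-fold lower (log2 change -2.94 ± 0.16 SE, adjusted p = 1.11e-05). Pou3f3 (Brn1) was 8.23, 8.37 and 7.88 in IP and 10.62, 10.14 and 10.72 unbound, 5.05-fold lower (log2 change -2.33 ± 0.20 SE, adjusted p = 8.05e-05). A probe set annotated to Pou3f3 and another gene, and therefore not used, averaged 2.13 in IP and 7.09 unbound. Pou3f2 (Brn2), also counted among factors tied to serotonin neuron development, was 3.10 on all IP arrays and 6.45, 5.92 and 6.48 unbound, at least 2.44-fold lower. Of the POU class III genes, Pou3f1 and Pou3f3 thus fell with both means at the limit, as did 33.2% of all such genes. The filter fixed the direction of Pou3f2. Pou6f1, which is widespread in the nervous system, read 7.75, 8.49 and 8.45 in IP and 8.51, 8.96 and 8.86 unbound. Its log2 change was -0.55 ± 0.24 SE (adjusted p = 0.0738), or -0.31 without IP replicate 1, and it turned positive under quantile (0.15) and median scalings (0.25 and 0.48). The 6 untested POU genes, including Pou5f1 of pluripotent cells, stayed below the limit on every array.

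Iroquois genes, which divide the neural plate into midbrain and hindbrain domains, all fell among those tested. The filter fixed this direction for Irx1, Irx3 and Irx5, which lay below the limit on every IP array. Irx3 was 3.52 on all IP arrays and 8.55, 8.43 and 8.47 unbound, at least 11.2-fold lower in IP (adjusted p = 3.62e-07). Irx5, which shares roles with Irx3 in many tissues, was 2.05, 2.77 and 2.04 in IP and 6.33, 6.33 and 6.11 unbound, at least 2.39-fold lower. Irx1 was 4.42, 4.42 and 4.43 in IP and 6.70, 6.33 and 5.86 unbound, at least 2.46-fold lower, a call that was lost under quantile normalisation (-0.47) and with the median over all probe sets (-0.84). Irx2 differed least. It read 5.25 on all IP arrays and 6.44, 6.25 and 6.41 unbound, 2.18-fold lower (log2 change -1.12 ± 0.08 SE, adjusted p = 3.85e-05), a call that was lost without scaling (-0.89) and under median scalings (-0.33 and -0.09) and whose sign turned under quantile normalisation (0.15).

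Six3, a factor of the anterior forebrain and eye, was 2.19 on all IP arrays and 6.44, 6.44 and 6.02 unbound, at least 2.46-fold lower (adjusted p = 1.47e-06). Six4 was 2.71, 2.65 and 2.65 in IP and 6.98, 5.75 and 6.11 unbound, at least 2.43-fold lower (adjusted p = 7.93e-05). Msx1, a roof plate factor, was 2.50, 2.53 and 2.50 in IP and 6.05, 5.52 and 5.94 unbound. That is at least 1.79-fold lower, a bound under 2-fold (adjusted p = 5.37e-06 in the limma fit to the values below the limit). These 3 genes were thus close to the limit in the tissue and out of range in IP. None of the 6 Dlx genes, which mark forebrain interneurons, of the 2 Barhl genes or of the 9 Nkx genes of the rule was tested. Among Nkx genes, Nkx2-9, a ventral midline factor, came nearest with 4.99, 4.66 and 5.11 unbound against 2.08 in IP, and Nkx2-1, a hypothalamic factor, stayed at 2.03 in IP and 2.18 unbound.

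Of the 6 tested zinc-finger, cut, Onecut and SATB homeobox genes, all but Onecut2 were above the limit on every IP array. Zfhx2, Onecut1 and Onecut3 did not reach the limit on any array. Zfhx3 (ATBF1), a large factor of differentiating neurons, was 7.89, 8.12 and 8.12 in IP and 10.98, 10.31 and 10.29 unbound, 5.59-fold lower (log2 change -2.48 ± 0.21 SE, adjusted p = 7.14e-05). Its relative Zfhx4 was 7.10, 7.64 and 7.10 in IP and 9.79, 9.13 and 9.30 unbound, 4.37-fold lower (log2 change -2.13 ± 0.23 SE, adjusted p = 0.000232). Satb1, a chromatin organiser, was 7.63, 7.90 and 7.90 in IP and 10.05, 9.93 and 10.20 unbound, 4.74-fold lower (log2 change -2.25 ± 0.12 SE, adjusted p = 9.67e-06). These 3 fell by similar amounts by their brightest probe sets. Every tested probe set of Zfhx3 (-4.58 to -1.30) and of Satb1 (-2.58 to -1.88) was lower as well, with sizes that varied. Onecut2 was 2.05 on all IP arrays and 7.11, 6.08 and 6.48 unbound, at least 2.95-fold lower (adjusted p = 1.33e-05).

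Cux1 and Cux2, cut homeobox genes best known from upper-layer cortical neurons, depended on the probe set. Cux2 was 7.72, 8.61 and 8.59 in IP and 10.16, 10.09 and 9.94 unbound by its brightest probe set, 3.37-fold lower (log2 change -1.75 ± 0.25 SE, adjusted p = 0.000945). Another probe set of Cux2 gave -1.06 and a further one 0.38, and the mean over its probe sets was not called. Cux1 was 8.31, 8.46 and 8.31 in IP and 8.74, 8.95 and 8.89 unbound by its brightest probe set, a log2 change of -0.50 ± 0.09 SE (adjusted p = 0.00275) that was under 2-fold and turned positive under quantile (0.18) and median scalings (0.30 and 0.53). By its other tested probe set Cux1 was 3.33 on all IP arrays and 7.39, 7.19 and 7.31 unbound, a change of -3.96 (adjusted p = 5.26e-07 with every probe set tested by itself). Of the 13 members with over 1 tested probe set, 3 (Cux2, Pbx2 and Pbx3) had probe sets of both signs.

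**Figure D3:**
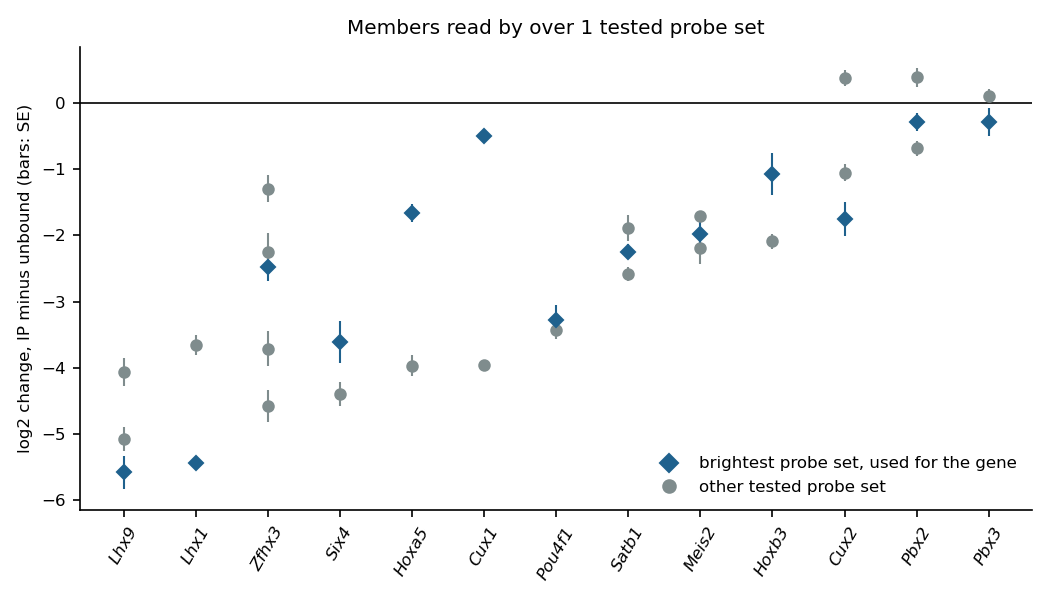
Log2 change, IP minus unbound (y axis, bars SE of the fit to all probe sets), of each tested probe set of the 13 members with over 1, with the brightest one as a diamond. Cux1 spans -3.96 to -0.50 and Zfhx3 -4.58 to -1.30, while Pbx2, Pbx3 and Cux2 have points on both sides of 0.

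**Figure D4:**
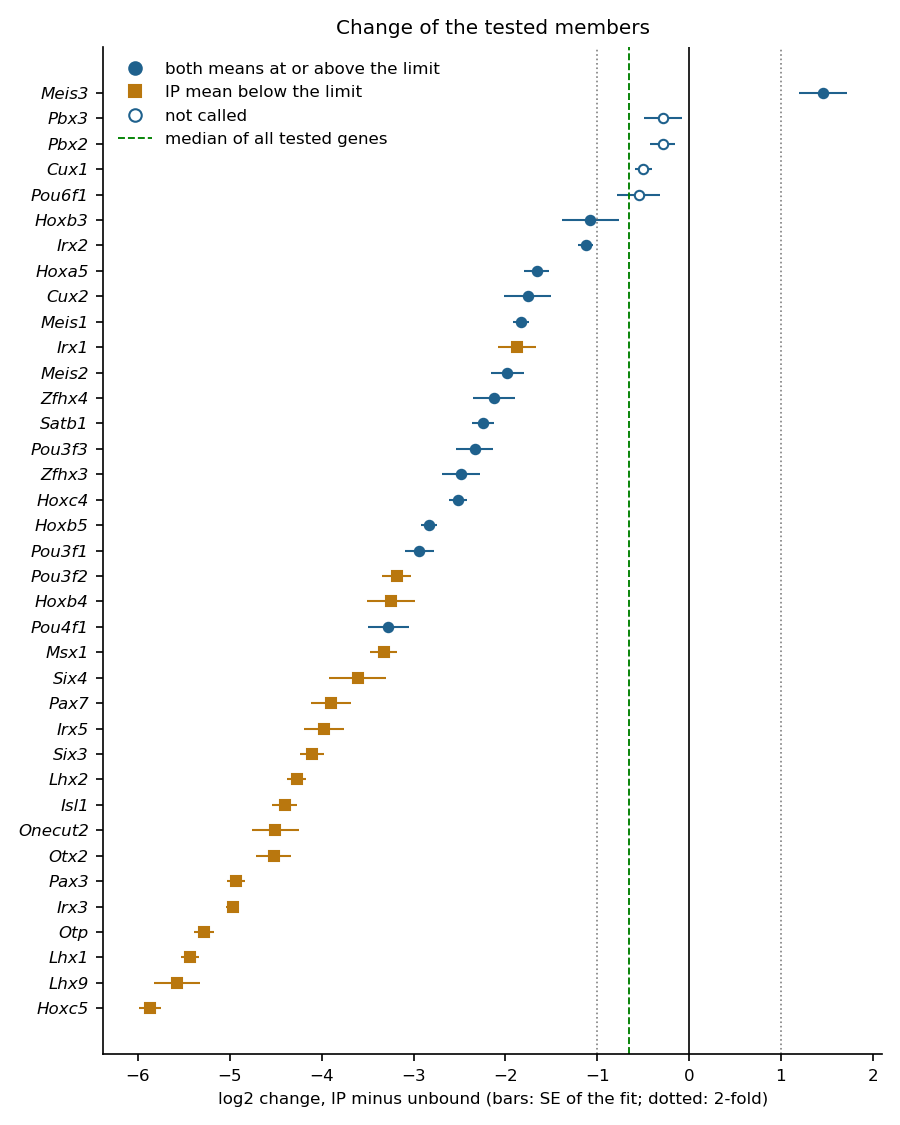
Log2 change, IP minus unbound (x axis, bars SE), of the 37 tested members in order. Blue circles have both means at or above the limit, ochre squares an IP mean below it and open symbols were not called. The dashed line is the median of all tested genes, -0.65, and only Meis3 lies to the right of 0.

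The scaling between the separately normalised groups moves all values together, so members were also set against the shift of all genes. Relative to the scaling on biotinylated controls used above, the median change of all tested genes went from -0.65 to -0.41 without scaling, 0.04 under quantile normalisation, 0.18 and 0.42 with arrays centred on the median of expressed or of all probe sets, and -3.37 on poly-A spikes. Members called lower numbered 30, 27, 28, 25 and 36 in that order, and the share of all tested genes called lower was 35.2%, 23.5%, 24.0%, 20.2% and 97.1%, against 14.1%, 23.8%, 27.1%, 33.6% and 0.340% called higher. All of the 30, 27, 28 and 25 were among the 32. Meis3 was called higher under each of these scalings (1.69, 2.71, 2.26 and 2.49) except the poly-A spikes, where its change was -1.22. The genes that lost their call under a median scaling were Cux2, Hoxa5, Hoxb3, Irx1, Irx2, Meis1 and Meis2, and under quantile normalisation Hoxb3, Irx1 and Irx2 lost it, while Msx1 and Pax7 were not tested.

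**Figure D5:**
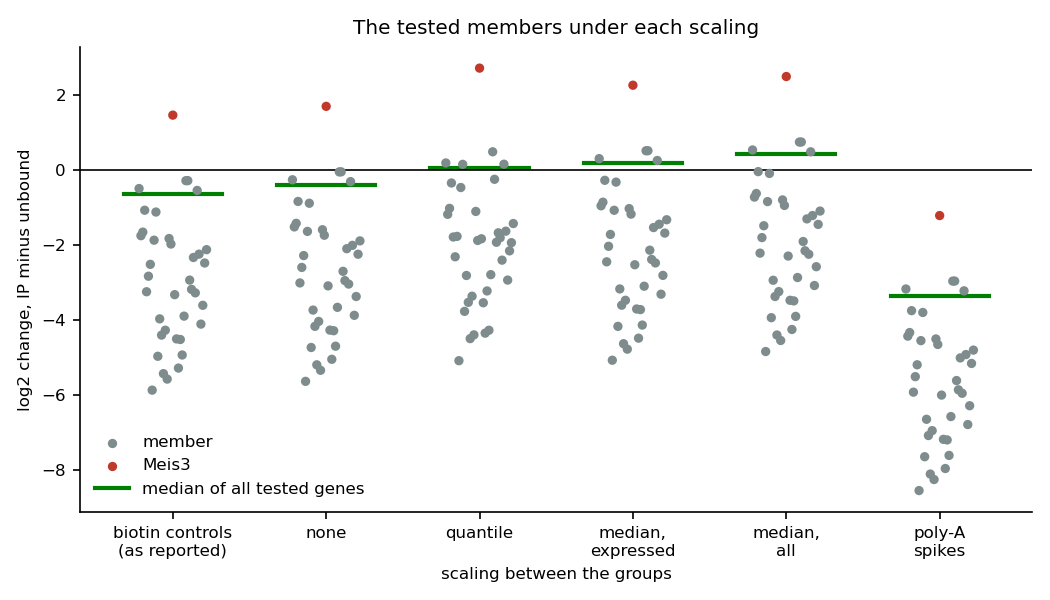
Log2 change, IP minus unbound (y axis), of the 37 members tested under the biotin scaling, for 6 scalings between the groups (x axis), with Meis3 in red and the median of all tested genes as a green bar. Meis3 lies above the green bar in each column, and under poly-A spikes every point is below 0.

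Of 50 other homeobox and regional factors measured for comparison, 23 were tested, of which 5 rose and 15 fell (median -2.48), beside 10.4% and 41.1% of all tested genes. The filter fixed the direction of 7 that fell, below the limit on every IP array, and of 3 that rose (Lmx1b, En1 and Nkx6-1), below it on every unbound array. Of the 13 with both means at the limit 2 rose and 8 fell, beside 10.4% and 33.2% of all such genes. The 5 that rose are known from serotonin neuron development. So is Nkx2-2, which fell: it was 4.85 in IP, below the limit on every IP array, and 7.18 unbound, at least 4.54-fold lower. Gata2, which acts upstream in that programme, was 10.62 ± 0.11 in IP and 5.93 ± 0.11 unbound (SD, n = 3), 25.8-fold higher, and Gata3 was 6.22-fold higher. Lmx1b, the LIM homeobox gene that serotonin neurons need, was at least 7.72-fold higher. The bounds were 2.12-fold for En1, of the midbrain and rostral hindbrain, and 1.61-fold for Nkx6-1, of ventral progenitors. Under the poly-A scaling the changes of Gata3 (-0.041) and Nkx6-1 (-1.16) turned.

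Among those that fell, Mab21l1 was at least 15.2-fold and Tfap2b, of noradrenergic and sensory neurons, at least 11.5-fold lower. Zic1, a dorsal and cerebellar factor, changed by -4.05, Foxp2 by -4.03 and Tcf7l2, of thalamus and midbrain, by -3.99. En2, Foxa1 and Pknox2 were not called, at -0.24, 0.11 and -0.30. Pknox2 encodes a TALE protein related to Meis, and like Pbx2 and Pbx3 its change was under 2-fold. En2 and Pknox2 turned positive under quantile and median scalings, and Foxa1 turned negative on poly-A spikes (-2.57) and without unbound replicate 3 (-0.013).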

How the data were processed

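Each array file holds 45101 deposited log2 values. They are GCRMA output, which the authors ran within each group of replicates, per the labels and the submitters' processing notes, and no version of GCRMA is stated there. Labelling used the two-cycle Affymetrix kit on 20 ng of total RNA, per the labels' protocols. That the scale is log2 was read from the values. As the series' design text recommends, groups were aligned on the biotinylated controls: -0.23, from 18 control probe sets, was added to every IP value. Before this shift the array medians were 3.21 to 3.24 for unbound samples and 2.43 for IP. The number of arrays limits the precision.

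Genes were named from the platform annotation, using the 34945 probe sets with 1 symbol (932 had several, 9160 none, and 64 were controls). All 208 member probe sets matched the RefSeq table by Entrez ID with 0 symbols changed. The brightest probe set over the 6 arrays stood for a gene. Genes with at least 3 of 6 arrays at log2 5 were tested with limma 3.58.1 (R 4.3.3; lmFit and eBayes on group, two-sided), with Benjamini-Hochberg adjustment over 10581 genes, and the fit was tested on simulated data. A fold given as at least a value counts each dim array at no less than 5, while the adjusted p beside it is of the fit to the values as they stand.

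Members and lists were chosen with earlier results of these data known. The naming rule was every tested member, untested members with an array at the limit, and of the other factors those that rose, those not called and the 5 largest decreases. The labels tie each unbound sample to its IP replicate, and deviations from the group means of paired samples correlated at 0.27, 0.16 and 0.10. With each pair as a block no member's call changed. Other scalings, filters, probe set rules and left-out arrays were tried.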

Additional observations from a re-analysis of the deposited data

How the results depend on the processing

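Of the 37 tested members, 1 was higher and 32 lower in IP, beside 1104 and 4354 of all 10581 genes. The filter at log2 7 left 22 members tested and gave 0 higher and 18 lower, and 3 of the other factors higher. Of all 8217 genes left by this filter, 913 were higher and 3095 lower. The filter left out Meis3, so the count of 0 reflects fewer genes tested. Scaling on poly-A spikes gave 0 members higher (limma, Meis3 not tested) and 1 of the other factors. The mean of probe sets gave 19 members lower of 24 tested, and leaving out genes with identical values, chosen after the data were seen, gave 20 of 25, and 8 other factors lower of 15. Over all genes these settings gave 3179 lower of 8794 and 3100 lower of 8424. The drops in members called lower came with fewer genes tested, apart from Cux2, which was tested but not called with the mean of probe sets. Each member still lower was among the 32.

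Leaving out each array gave 31 to 32 members lower and 1 higher, with 5 other factors higher and 15 lower. Hoxb3 was the member that lost its call. The replicate block, fitted on the pairs, gave 32 lower and 1 higher and changed no member's call. Over all genes the block gave 4360 lower and 1108 higher. With no filter 47 of the 114 members were lower, beside 5395 of all 18193 genes. Of the 47, 15 were not among the 32.

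Signs turned under quantile normalisation for Cux1 (0.18), Irx2 (0.15), Pbx2 (0.48), Pou6f1 (0.15), En2 (0.63) and Pknox2 (0.64). With the median over expressed probe sets they turned for Cux1 (0.30), Pbx2 (0.51), Pbx3 (0.51), Pou6f1 (0.25), En2 (0.56) and Pknox2 (0.50), and with that over all probe sets for Cux1 (0.53), Pbx2 (0.74), Pbx3 (0.74), Pou6f1 (0.48), En2 (0.79) and Pknox2 (0.73). On poly-A spikes Foxa1 (-2.57), Gata3 (-0.041), Meis3 (-1.22, not tested there) and Nkx6-1 (-1.16) turned. So did En2 without IP replicate 1 (0.033, the other left-out arrays giving -0.42 to -0.15) and Foxa1 without unbound replicate 3 (-0.013). Apart from the arithmetic of each shift, the cause was not tested. Values under 5 give bounds only.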

Other observations

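Of the 77 members that were not tested, 55 stayed under a log2 value of 3 on all arrays. Lhx6, Nkx2-5 and Pou2f2 had all IP values above all unbound values, but far below the limit: Nkx2-5 read 2.73, 2.72 and 2.72 in IP and 2.17, 2.40 and 2.38 unbound. These were chosen after their values were seen and show no order.

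Of 4 probe sets annotated to a member together with another gene, 2 reached the limit on 3 arrays, all of them unbound. One holds Pou3f3 with another gene and the other Hoxb7 with Hoxb8. Both were lower in IP, by log2 changes of -4.96 and -3.73 (limma over all probe sets, adjusted p = 4.57e-07 and 4.63e-07). They averaged 2.13 and 2.04 in IP, so the filter fixed their direction.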
